A study of Homo sapiens with 12 samples.

Results

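TIMP1, TIMP2, TIMP3 and RECK were followed as 4 genes chosen by symbol, of 16101 genes listed in a table for phorbol 12-myristate 13-acetate (PMA) and 15991 genes listed in a table for concanavalin A (ConA). PMA is a phorbol ester that activates protein kinase C, and ConA is a plant lectin that binds cell surface glycoproteins. TIMP4, the remaining member of the TIMP family, is listed in neither table. All libraries came from wild-type HT1080 cells, an established human fibrosarcoma line, and polyadenylated RNA was sequenced. In one experiment 3 libraries of cells given 40 nM PMA for 24 h were compared with 3 untreated control libraries, and in the other 3 libraries of cells given 40 µg/mL ConA for 24 h were compared with 3 untreated control libraries of its own, numbered 4 to 6. The medium was switched from 10% to 1% serum for the treatment. The sources do not say that the replicate libraries were separate cultures, so the p-values below measure the spread between libraries, which may be technical. Each treatment has its own experiment, so that a difference between the treatments cannot be told apart from a difference between the experiments.

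The tissue inhibitors of metalloproteinases are small secreted proteins that block the active site of matrix metalloproteinases (MMPs). TIMP1 is a good inhibitor of most secreted MMPs but a poor one of membrane-type MMPs. TIMP2 also takes part in the activation of pro-MMP2 on the cell surface, where it bridges MMP14 and pro-MMP2, and TIMP3 stays bound to the extracellular matrix and also inhibits ADAM17, the TNF-alpha sheddase, and several ADAMTS enzymes. RECK is a membrane-anchored glycoprotein that restrains MMPs, MMP14 included, and serves with ADGRA2 as a receptor complex for WNT7 ligands. HT1080 cells are known for MMP14 on their surface and are often used with PMA or ConA to study MMP2 activation.

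Values are normalized counts, taken here as reads per gene multiplied by 1 estimated factor per library, within each table apart. They are not divided by transcript length. About 33639306 to 45593637 reads per library were estimated on genes, and replicate libraries differed by 3.53 to 16.43 times the variance that sampling alone gives. PMA control 3 was farther from the other PMA controls (11.73 and 16.43) than these were from each other (3.53), and ConA library 1 was farther from the other ConA libraries (12.47 and 11.26) than these were (4.98). Without PMA control 3, or without ConA library 1, each of the 4 genes was on the same side of the call thresholds as with it. The list for mesenchymal or fibrosarcoma cells (VIM, FN1, CDH2, S100A4 and COL5A1, and NRAS, which is expressed in most cells) was listed whole in both tables, and summed to 370430 to 379080 normalized counts in the PMA controls and 388750 to 407220 with PMA, and to 375630 to 454980 in the ConA controls and 253650 to 274310 with ConA. Markers of other cells summed to far less than this list, and some moved with a treatment. Lymphocyte markers (6 of 8 listed for PMA, CD79A and MS4A1 not) summed to 599 to 667 in the PMA controls and 702 to 1181 with PMA. These sums over 6 genes were above the counts of RECK alone in the same libraries (361 to 423 and 296 to 339). They were also above those of TIMP3 alone with PMA (333 to 367). None of these values is per length, so they do not order the levels of single genes. Monocyte markers (3 of 4 listed for PMA) summed to 300 to 332 in the PMA controls and 326 to 385 with PMA, with overlap. Epithelial markers (1 of 4 listed for PMA, with CDH1, EPCAM and KRT5 not) went from 111 to 112 down to 59.9 to 73.1 with PMA, and endothelial markers (2 of 3) from 64.4 to 84.9 down to 44.3 to 52.2. With ConA, monocyte markers (2 of 4 listed) went from 432 to 460 down to 352 to 405. In the ConA experiment the lymphocyte (2 of 8 listed), epithelial (3 of 4) and endothelial (2 of 3) markers each summed to at most 191, with overlap between treated and control libraries. Their part in the results was not tested.

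Of the 4 genes, 3 have a promoter in the RefSeq tables used here (build GRCh38.p14), and that of TIMP2 is not among them. The 250 bases before the annotated start are shown for TIMP1 and TIMP3, because these genes passed the call thresholds in opposite directions with PMA. Capitals mark the motifs found on either strand, and both genes lie on the plus strand, TIMP1 at chrX:47582186-47582435 and TIMP3 at chr22:32801455-32801704.
TIMP1: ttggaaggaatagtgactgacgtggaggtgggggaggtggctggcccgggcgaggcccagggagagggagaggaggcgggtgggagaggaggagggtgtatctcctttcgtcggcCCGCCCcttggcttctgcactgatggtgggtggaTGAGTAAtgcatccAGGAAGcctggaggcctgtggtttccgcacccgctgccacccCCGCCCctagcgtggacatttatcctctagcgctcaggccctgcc
TIMP3: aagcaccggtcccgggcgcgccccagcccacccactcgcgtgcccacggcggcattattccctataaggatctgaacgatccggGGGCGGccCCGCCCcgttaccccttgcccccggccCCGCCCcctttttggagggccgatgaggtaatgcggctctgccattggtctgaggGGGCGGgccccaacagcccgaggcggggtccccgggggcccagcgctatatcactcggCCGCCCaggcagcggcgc
The motifs searched were the AP-1 consensus TGANTCA, its variant TGAGTAA, the ETS core AGGAAG, the SP1 core GGGCGG, the TATA box TATAAA, and the longer interferon response and NF-kB motifs. The marked matches do not overlap each other. The TIMP1 promoter holds TGAGTAA once, beginning 101 bases before the start, and AGGAAG once, 87 bases before it, on the strand shown, and GGGCGG in 2 places on the opposite strand. TIMP3 holds GGGCGG in 5 places and none of the other motifs, and RECK holds it in 3 places. Of all 35116 promoters of this length, 2.21% hold TGAGTAA, 28.7% AGGAAG and 42.6% GGGCGG. GC content was 64.8% for TIMP1, 72.4% for TIMP3 and 63.6% for RECK. TGANTCA (6.57% of all promoters), TATAAA (10.7%), the interferon response motif (3.02%) and the NF-kB motif (0.527%) were not found in these windows. A match describes the letters only, and the start sites in use in HT1080 cells were not measured.

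With PMA the inhibitors went apart: TIMP1 transcripts rose 7.74-fold, TIMP3 transcripts fell to 8.72% of the control level, and TIMP2 and RECK had lower levels with differences under the threshold of 2-fold. The call rule asked for a log2 difference of 1 or more in either direction and an adjusted p no higher than 0.0001 (limma on log2(value + 1), Benjamini-Hochberg adjustment over all genes tested). By this rule 2 of the 4 genes were called with PMA, where 8.65% of the 15153 genes tested were called. Of the genes tested, 4.03% were called higher, as TIMP1 was, and 4.61% lower, as TIMP3 was. With ConA 1 of the 4, TIMP3, was called, and it was lower. Of 15139 genes 8.71% were called with ConA, 5.83% of the genes tested being higher and 2.88% lower. At an adjusted p of at most 0.05 with no minimum size, all 4 passed with either treatment, which is a weak criterion here because 63.3% of all genes passed it with PMA and 65.3% with ConA. None of the 4 genes had overlap between treated and control libraries in either experiment, as was so for 67.9% of all genes with PMA and 69.3% with ConA. For each gene the exact two-sided permutation test of 3 libraries against 3 gave p = 0.1, the smallest it can give.

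TIMP1, the broad inhibitor of secreted MMPs, had 6519, 6789 and 6833 normalized counts in the PMA controls and 49120, 51505 and 55411 with PMA. All PMA libraries stood far above all controls. The rise was 2.95 on the log2 scale (standard error 0.047, 95% confidence interval 2.85 to 3.06, adjusted p = 1.83e-12). Only 97 of 15153 genes had a higher log2 difference with PMA. In the ConA experiment the controls had 6414, 6641 and 6511 normalized counts and the ConA libraries 8590, 8339 and 8230. These groups did not overlap either, but the gap was narrow beside that with PMA. The log2 difference was 0.36 (standard error 0.048, interval 0.26 to 0.47, adjusted p = 1.46e-05), or 1.29-fold, under the threshold of 2-fold. SYN1, which encodes a synaptic vesicle protein, overlaps TIMP1 on the opposite strand, and whether the counting used strand is not given in the sources used here. Its values were 2.77 to 9.03 normalized counts in the PMA controls and 15.2 to 28.7 with PMA, and 4.00 to 9.38 in the ConA controls and 11.0 to 17.1 with ConA, far below those of TIMP1 in every library.

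TIMP3, the matrix-bound inhibitor of ADAM17 and aggrecanases, moved the other way. The PMA controls had 3946, 3716 and 4564 normalized counts and the PMA libraries 367, 333 and 366. Every PMA library was below every control by a wide margin. TIMP3 fell by 3.51 on the log2 scale (standard error 0.075, interval -3.68 to -3.35, adjusted p = 1.36e-11), and only 24 of 15153 genes had a lower log2 difference. With ConA, levels were 2879, 2491 and 2449 normalized counts against 8174, 7621 and 7579 in its controls, again with no overlap. TIMP3 then fell by 1.58 on the log2 scale (standard error 0.065, interval -1.72 to -1.44, adjusted p = 6.78e-11), to 33.4% of control, and 154 of 15139 genes had a lower log2 difference. TIMP3 was the one gene of the 4 called with both treatments. SYN3, the gene that hosts TIMP3, is not listed in either table.

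TIMP2, the inhibitor that also bridges MMP14 and pro-MMP2, had 20627, 19306 and 21998 normalized counts in the PMA controls and 11702, 11000 and 11874 with PMA. Its level with PMA was 55.8% of control, lower in all 3 libraries than in any control. The log2 difference was -0.84 (standard error 0.051, interval -0.95 to -0.73, adjusted p = 7.34e-08), short of the threshold on size, and -1.01 after quantile normalization, which passes it (adjusted p = 1.45e-08, where the settings tried gave between 1.54e-10 and 0.00017). With ConA, 22398, 22429 and 23303 normalized counts stood against 29037, 26899 and 28070 in the controls. The groups lay close to each other without overlap, at 81.1% of control and a log2 difference of -0.30 (standard error 0.052, interval -0.41 to -0.19, adjusted p = 0.000161). After quantile normalization the log2 difference was -0.16 (adjusted p = 0.0228, the highest of the settings tried, the lowest being 3.72e-05). CEP295NL, which lies within TIMP2 on the same strand, had 1.20 to 12.8 normalized counts over all 12 libraries.

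RECK, the membrane-anchored inhibitor, was the least expressed of the 4, with 271.9 to 732.1 estimated reads per library. The PMA controls had 423, 377 and 361 normalized counts and the PMA libraries 339, 296 and 326. The lowest control lay just above the highest PMA library. The log2 difference was -0.27 (standard error 0.086, interval -0.46 to -0.08, adjusted p = 0.0165), to 82.7% of control. The ConA libraries had 624, 675 and 658 normalized counts against 576, 562 and 561 in the controls. Here the treated libraries were the higher ones, by a log2 difference of 0.20 (standard error 0.071, interval 0.05 to 0.35, adjusted p = 0.0219). Neither difference was called, and neither kept an adjusted p under 0.05 in every setting. With PMA it was 0.0711 after quantile normalization, 0.0806 without PMA control 1 and 0.0702 without PMA library 2, in a range from 0.00506 to 0.0806. With ConA it was 0.203 after quantile normalization, with a log2 difference of 0.10, 0.0934 after median centring, and 0.058, 0.079 and 0.0683 without ConA control 6, ConA library 2 and ConA library 3, in a range from 0.0161 to 0.203.

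**Figure D1:**
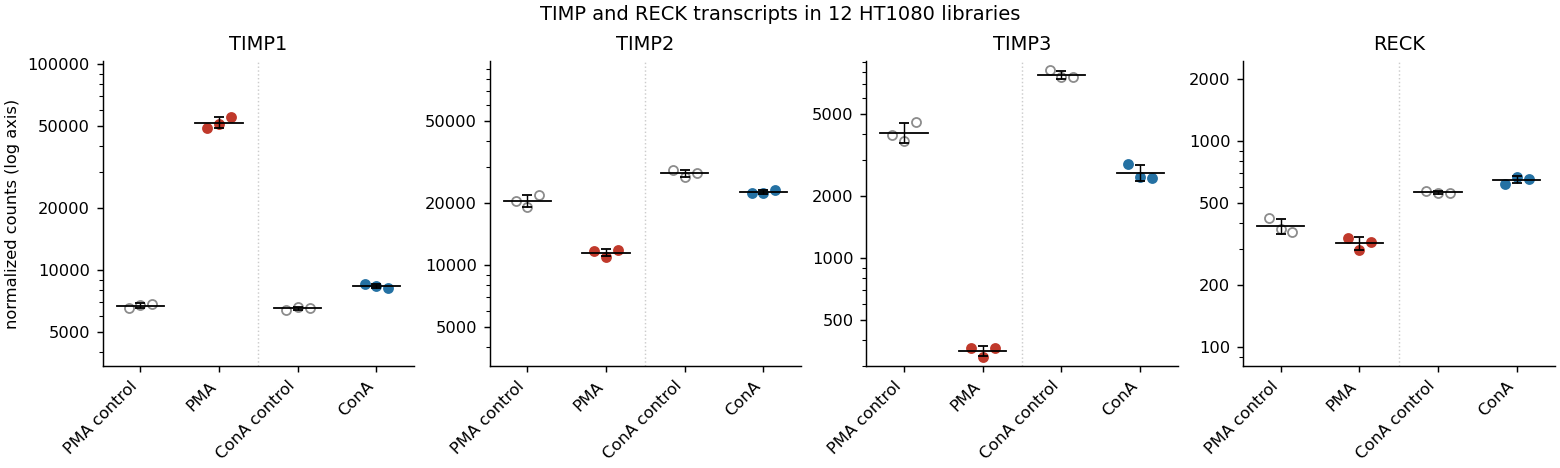
Normalized counts (log axis) of TIMP1, TIMP2, TIMP3 and RECK in the 12 libraries, 1 point per library in 4 groups, with the mean and SD of each group (n = 3), the 4 axes covering the same fold range. TIMP1 reaches 49120 to 55411 with PMA, and TIMP3 drops to 333 to 367.

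Because the tables were normalized apart, the treatments were compared through their changes, each against its own controls, in 1 limma model over the 12 libraries. The difference (PMA change minus ConA change) was called for 2 of the 4 genes, TIMP1 and TIMP3, where 10.6% of 15030 genes were called. It was 2.59 on the log2 scale for TIMP1 (standard error 0.065, interval 2.45 to 2.73, adjusted p = 1e-15) and -1.93 for TIMP3 (standard error 0.105, interval -2.15 to -1.71, adjusted p = 5.56e-11). The upward change of TIMP1 and the downward change of TIMP3 were thus larger in the PMA experiment. The difference for TIMP2 was -0.54 (standard error 0.073, interval -0.69 to -0.38, adjusted p = 5.99e-06) and that for RECK was -0.48 (standard error 0.109, interval -0.70 to -0.25, adjusted p = 0.00109), both under the threshold on size. After quantile normalization they were -0.86 (adjusted p = 3.76e-08) and -0.30 (adjusted p = 0.0252). At an adjusted p of at most 0.05 all 4 passed, as did 61.1% of all genes.

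**Figure D2:**
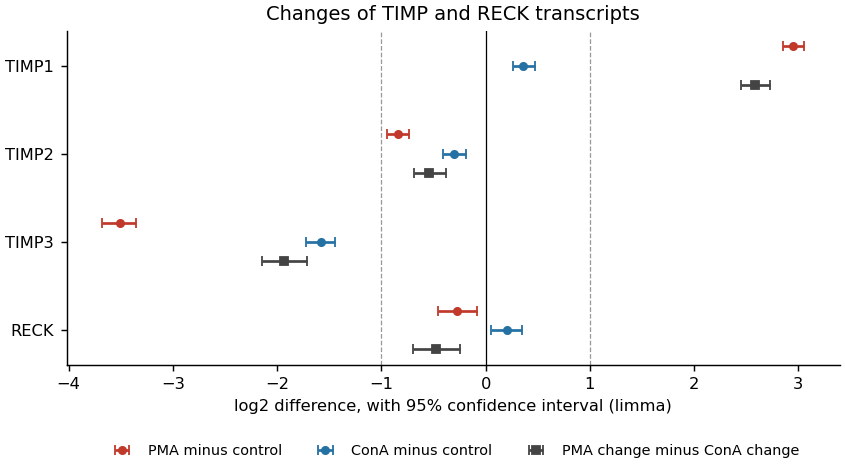
Log2 difference of treated against control libraries of the same experiment for each gene, with its 95% confidence interval (limma), for PMA and ConA (circles). Squares give the PMA change minus the ConA change, and dashed lines mark the call threshold of 1. TIMP1 with PMA and TIMP3 with both treatments lie beyond the lines, as do the squares of TIMP1 and TIMP3.

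Levels of the genes can be set against each other only per length, here as normalized counts per kilobase of the principal transcript (892 bases for TIMP1, 3652 for TIMP2, 4603 for TIMP3 and 4888 for RECK). In the PMA controls TIMP1 stood highest at 7526 ± 191 per kilobase (SD, n = 3), followed by TIMP2 at 5653 ± 369, TIMP3 at 885 ± 95.3 and RECK at 79.2 ± 6.59. With PMA the order was the same but the distances were not. TIMP1 was at 58310 ± 3560 per kilobase, TIMP2 at 3156 ± 127, TIMP3 at 77.2 ± 4.25 and RECK at 65.5 ± 4.54 (SD, n = 3 each). TIMP3 with PMA had come down close to the level of RECK, although the 3 libraries of each gene did not overlap (72.3 to 79.7 against 60.5 to 69.4). In the ConA controls TIMP2 at 7668 ± 293 and TIMP1 at 7312 ± 128 per kilobase overlapped and could not be ordered, above TIMP3 at 1693 ± 72.1 and RECK at 116 ± 1.73. With ConA TIMP1 stood first at 9402 ± 207 per kilobase, then TIMP2 at 6218 ± 141, TIMP3 at 566 ± 51.5 and RECK at 133 ± 5.35, with no overlap between neighbours.

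The make-up of the TIMP pool was taken as the share of each gene in the summed normalized counts of TIMP1, TIMP2 and TIMP3 in a library. These shares follow the reads, and transcript length weighs in them, so the change of a share is read here and not the order of the genes. TIMP1 was 21.0%, 22.8% and 20.5% of the pool in the PMA controls and 80.3%, 82.0% and 81.9% with PMA. TIMP2 went from 66.3%, 64.8% and 65.9% to 19.1%, 17.5% and 17.6%, and TIMP3 from 12.7%, 12.5% and 13.7% to 0.6%, 0.529% and 0.542%. The groups were far apart for all 3 genes. The mean share went from 21.4% ± 1.22 to 81.4% ± 0.959 for TIMP1, from 65.7% ± 0.812 to 18.1% ± 0.922 for TIMP2 and from 12.9% ± 0.639 to 0.557% ± 0.0375 for TIMP3 (SD, n = 3 each, exact two-sided permutation test, p = 0.1 each). The pool itself was 2.03 times as large with PMA, 63892 ± 3360 against 31432 ± 1820 normalized counts (SD, n = 3 each, exact permutation p = 0.1).

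With ConA the share of TIMP1 was higher and that of TIMP3 lower than in the controls, without overlap. TIMP1 went from 14.7%, 16.1% and 15.4% in the ConA controls to 25.4%, 25.1% and 24.2%. TIMP3 went from 18.7%, 18.5% and 18.0% to 8.5%, 7.49% and 7.21%. TIMP2 had 66.6%, 65.3% and 66.6% in the controls and 66.1%, 67.4% and 68.6% with ConA, and these groups overlapped. The mean shares differed by 9.46 percentage points for TIMP1 and -10.7 for TIMP3 (exact two-sided permutation test, p = 0.1 each), and by 1.22 for TIMP2 (p = 0.3). The TIMP2 value was 0.623 without ConA library 3, 0.813 without ConA control 5 and 1.84 without ConA library 1. The pool was 0.796 times that of the controls, 33702 ± 389 against 42316 ± 1240 normalized counts (SD, n = 3 each, exact permutation p = 0.1).

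Dividing by transcript length changes these shares, because the TIMP1 transcript is short. Per length, TIMP1 was already the main transcript of the PMA controls, at 53.5% ± 1.76 of the pool, and reached 94.7% ± 0.316 with PMA (SD, n = 3 each). TIMP3 went from 6.28% ± 0.439 to 0.126% ± 0.00955 and TIMP2 from 40.2% ± 1.38 to 5.14% ± 0.307. In the ConA experiment the share of TIMP1 per length was 43.9% ± 1.36 in the controls and 58.1% ± 0.822 with ConA, and that of TIMP2 was 46.0% ± 1.15 and 38.4% ± 1.06. The difference in the TIMP2 share with ConA is thus 1.22 percentage points on counts and -7.56 per length, opposite in sign. Per length the pool with PMA was 4.38 times that of the controls, and with ConA 0.971 times (exact permutation p = 0.1 each).

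**Figure D3:**
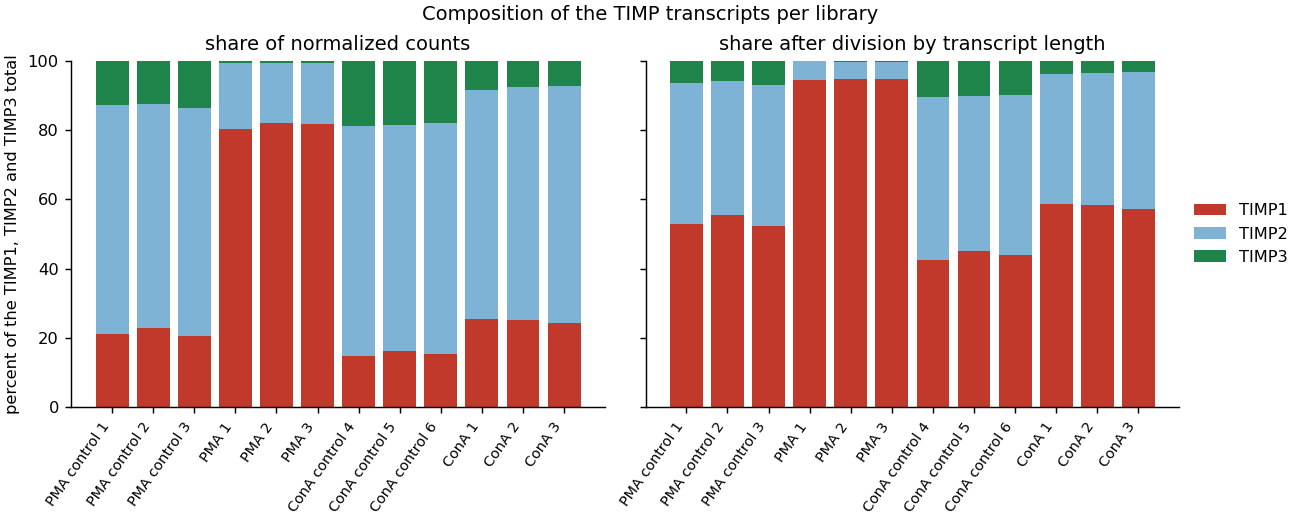
Share of TIMP1, TIMP2 and TIMP3 in their summed normalized counts (percent, stacked bars from 0, left) and after division by transcript length (right), 1 bar per library, 12 libraries in 4 groups. On the left TIMP1 fills 80.3% to 82.0% of the bar with PMA, against 20.5% to 22.8% in its controls and 24.2% to 25.4% with ConA.

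The inhibitors were next read against the proteases they are best known to meet, as the ratio of normalized counts within a library, in which 1 scaling factor per library cancels. Quantile normalization, which is not 1 factor per library, does change it. The counts are not per length, so only the change of a ratio is read. All 10 ratio comparisons had no overlap between treated and control libraries, with exact two-sided permutation p = 0.1 each and 0.1 after Benjamini-Hochberg adjustment over the 10. A lack of overlap is common here, as 67.9% of single genes had none with PMA and 69.3% with ConA. The share among ratios of other genes was not tested. The 10 are also not independent, because MMP14 and TIMP2 each enter more than 1 pair. The ratio of ADAM17 to TIMP3 had the largest change, from 1.10, 1.14 and 0.902 in the PMA controls to 10.8, 11.9 and 10.1 with PMA, 10.5-fold. With ConA it went from 0.615, 0.598 and 0.622 to 1.85, 2.30 and 2.27, 3.48-fold. ADAM17 itself had log2 differences of only -0.13 with PMA and 0.22 with ConA (adjusted p = 0.022 and 0.0031), so most of the change in the ratio was that of TIMP3.

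MMP9, the inducible gelatinase B that binds TIMP1 as a proenzyme, was called higher with both treatments, with log2 differences of 4.77 and 2.25. Its ratio to TIMP1 went from 0.0445 ± 0.00293 to 0.157 ± 0.0109 with PMA and from 0.106 ± 0.00218 to 0.393 ± 0.00743 with ConA (SD, n = 3 each). These are changes of 3.53-fold and 3.69-fold, although TIMP1 rose past the thresholds with PMA and not with ConA. MMP14, the membrane-type protease bound by TIMP2, had a ratio to TIMP2 of 4.72 ± 0.148 in the PMA controls and 12.6 ± 0.169 with PMA, 2.68-fold, and of 5.86 ± 0.384 and 6.49 ± 0.299 with ConA, 1.11-fold (SD, n = 3 each). After quantile normalization the log2 change of this ratio with ConA was 0.32 in place of 0.15. MMP14 had a log2 difference of 0.58 with PMA (adjusted p = 8.99e-07), so the ratio with PMA combined a higher MMP14 with a lower TIMP2. With ConA the MMP14 value was -0.15 (adjusted p = 0.048) and took the opposite sign, 0.17, after quantile normalization. MMP2, gelatinase A, was called lower with PMA (log2 difference -1.28, adjusted p = 3.97e-09) and had -0.71 with ConA. Its ratio to TIMP2 went from 0.837 ± 0.0357 to 0.618 ± 0.0327 with PMA and from 0.930 ± 0.0312 to 0.701 ± 0.0643 with ConA (SD, n = 3 each), log2 changes of -0.44 and -0.41. In the deposited scaling the ratio of MMP14 to RECK was 1.81-fold higher with PMA (253 ± 25.7 to 456 ± 21.5) and 1.28-fold lower with ConA (289 ± 11.9 to 227 ± 18.4; SD, n = 3 each). After quantile normalization its log2 change with ConA was 0.06 in place of -0.36, so that the opposite direction was lost, and that with PMA was 0.59 in place of 0.86.

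**Figure D4:**
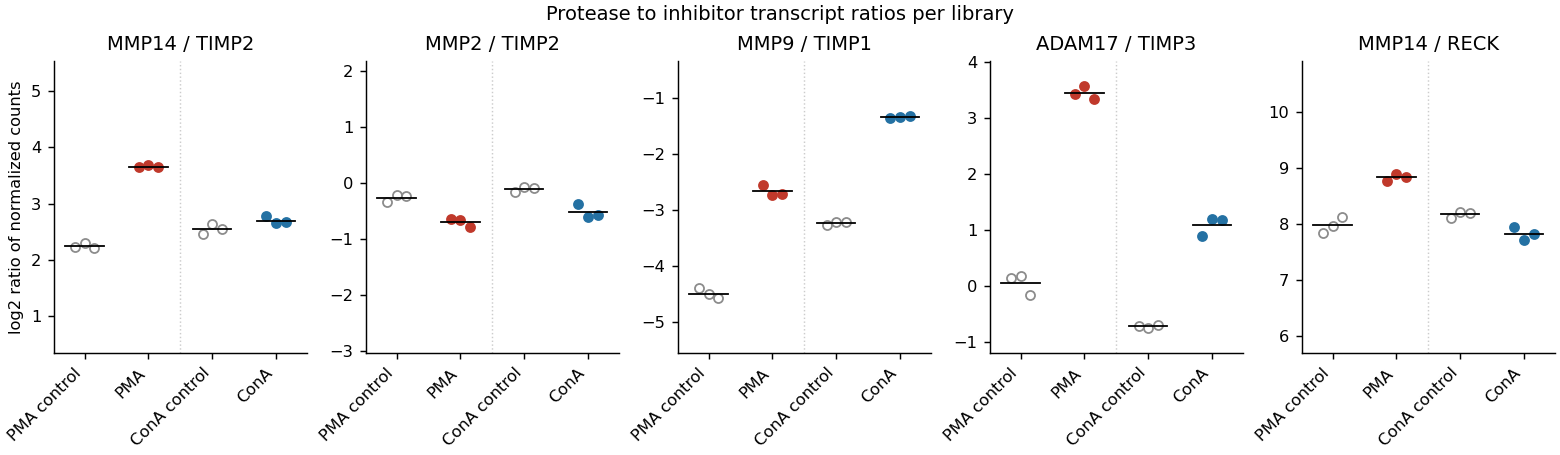
Log2 ratio of the normalized counts of a protease to those of an inhibitor for 5 pairs, 1 point per library in 4 groups (n = 3 each). ADAM17 to TIMP3 moves most, by 3.39 with PMA and 1.80 with ConA.

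Around these 4 genes, lists of proteases, partners and other inhibitors were counted. Of 23 MMP genes 15 were tested in each experiment. With PMA 6 of them rose and 2 fell past the thresholds (median log2 difference 0.58, against 0.00 over all genes tested), and with ConA 5 rose and 2 fell (median 0.29, against 0.00). Of all genes tested 8.65% were called with PMA and 8.71% with ConA, against 8 of the 15 MMPs tested with PMA and 7 of the 15 tested with ConA. The sets share 14 genes, MMP10 being tested with PMA alone and MMP12 with ConA alone. The largest log2 differences with PMA were those of the collagenase MMP1 (5.65, adjusted p = 3.41e-14), MMP9 and the stromelysin MMP3 (3.95, adjusted p = 6.65e-10), and of MMP10, another stromelysin, which had 0.922 to 1.81 normalized counts in the controls and 169 to 195 with PMA, too few control reads for a fold. With ConA they were those of the collagenase MMP13 (5.77, adjusted p = 7.27e-13), MMP3 (2.76) and MMP9, and of the macrophage elastase MMP12, which had 0 to 1.04 normalized counts in the controls and 43.1 to 86.3 with ConA. Without a variance trend 2 of the 15 were called with ConA, against 662 of all 15139 genes. MMP1 was also called higher with ConA (limma log2 difference 1.78, adjusted p = 1.35e-08) and MMP13 with PMA (2.32, adjusted p = 1.6e-05). MMP1, MMP3, MMP9 and MMP13 thus rose past the thresholds with both treatments, while TIMP1 passed them with PMA alone. In the other direction, MMP24 was called lower with both treatments (log2 differences -1.66 and -1.86, limma, adjusted p = 2.34e-07 and 1.02e-07). MMP2 was called lower with PMA alone, and MMP16 with ConA alone (-1.28, limma, adjusted p = 2e-08). The difference in the TIMP1 change between the treatments is the tested value of 2.59 above.

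Of the ADAM and ADAMTS proteases, for several of which TIMP3 is the known inhibitor, 1 of 12 tested was called with PMA (median -0.09) and 2 of 11 with ConA (median 0.14), against 8.65% and 8.71% of all genes. The count with PMA is near the background. So is that with ConA after quantile normalization, 1 of 11 against 1270 of all 15139 genes. ADAMTS9, a versican- and aggrecan-cleaving enzyme, rose with both treatments. Its 89.8 ± 10.6 normalized counts in the PMA controls became 428 ± 17.1 (SD, n = 3 each, log2 difference 2.25, adjusted p = 7.74e-09) and with a log2 difference of 1.76 with ConA (adjusted p = 3.83e-08). ADAM28 rose with ConA from a low level (5.39 ± 3.19 to 33.9 ± 8.06 normalized counts, SD, n = 3 each, log2 difference 2.53, adjusted p = 6.46e-05). When limma was run without a variance trend, 0 of the 11 were called with ConA, against 662 of all 15139 genes. Of the 11, 7 had an unadjusted p under 0.05. That is a weak criterion, as 65.3% of all genes had an adjusted p of at most 0.05 with the trend.

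Among 10 cell surface and matrix partners of the TIMPs and RECK, 3 fell with PMA (median -0.11), where 8.65% of all genes were called and 4.61% were called lower. They were EFEMP1, the fibulin-3 that binds TIMP3 (18250 ± 269 to 6060 ± 37.6 normalized counts, SD, n = 3 each, log2 difference -1.59, adjusted p = 1.46e-11), LRP1, the endocytic receptor that clears TIMPs and MMP complexes (17180 ± 362 to 7496 ± 408, log2 difference -1.20, adjusted p = 1.11e-09), and ADGRA2, which acts with RECK in WNT7 signalling (1022 ± 48.6 to 488.8 ± 13.5, log2 difference -1.06, adjusted p = 3.21e-08). With ConA EFEMP1 had the opposite sign (23390 ± 362 to 39050 ± 1670 normalized counts, SD, n = 3 each, log2 difference 0.74, adjusted p = 2.97e-08), and LRP1 and ADGRA2 had log2 differences of -0.27 and -0.68, none of the 3 past the threshold on size. With ConA 1 of the 10 was called (median 0.01), near the 8.71% of all genes. It was FZD4, a frizzled receptor for WNT7 and norrin that signals with RECK and ADGRA2 (442 ± 44.8 to 1063 ± 54.1 normalized counts, SD, n = 3 each, log2 difference 1.27, adjusted p = 1.14e-08). Without a variance trend 0 of the 10 were called with ConA, against 662 of all 15139 genes. Of the 10, 7 had an unadjusted p under 0.05 in limma, the same weak criterion as above. Among the partners not called with either treatment, KDR had log2 differences of 1.01 with PMA and 1.11 with ConA (limma, adjusted p = 0.000738 and 0.00191). Its levels were low, 30.4 to 48.8 normalized counts in the PMA controls and 21.0 to 43.1 in the ConA controls. WNT7A, at 11.7 to 21.2 and 8.01 to 12.5 in these controls, had -1.18 and 0.82 (limma, adjusted p = 0.0173 and 0.0434). WNT7B, a ligand of the RECK complex, had log2 differences of 0.47 and -0.86. CD63, the tetraspanin that binds TIMP1, had log2 differences of 0.55 and 0.07, and ITGB1, the integrin subunit in TIMP receptors, 0.18 and -0.16.

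Of 22 other secreted protease inhibitors and related proteins, 18 were tested with PMA, and 7 of them rose and 1 fell (median 0.52), where 4.03% of all genes were called higher and 4.61% lower. Without a variance trend 3 were called, against 867 of all 15153 genes. With ConA 5 of 17 rose (median 0.14), where 5.83% of all genes were called higher. SERPINB2, a plasminogen activator inhibitor, had the largest log2 differences with both treatments, 7.27 with PMA and 3.90 with ConA. The others named by size were PI3, the elastase inhibitor elafin (5.31 with PMA), SERPINA1, alpha-1-antitrypsin (4.98 and 2.08), TFPI2, a Kunitz inhibitor that also acts on matrix proteases (3.79 and 3.13), and SLPI, the secretory leukocyte protease inhibitor (2.73 with ConA). Some of these rose from low levels. PI3 had 2.71 to 15.2 normalized counts in the PMA controls, and SLPI 5.00 to 8.01 in the ConA controls. TFPI2 had 10.8 to 40.2 in the PMA controls and 11.0 to 19.0 in the ConA controls. The gene that fell with PMA was PCOLCE, an enhancer of procollagen C-proteinase (log2 difference -1.18), rather than an inhibitor of it. It was picked out after its value was seen.

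**Figure D5:**
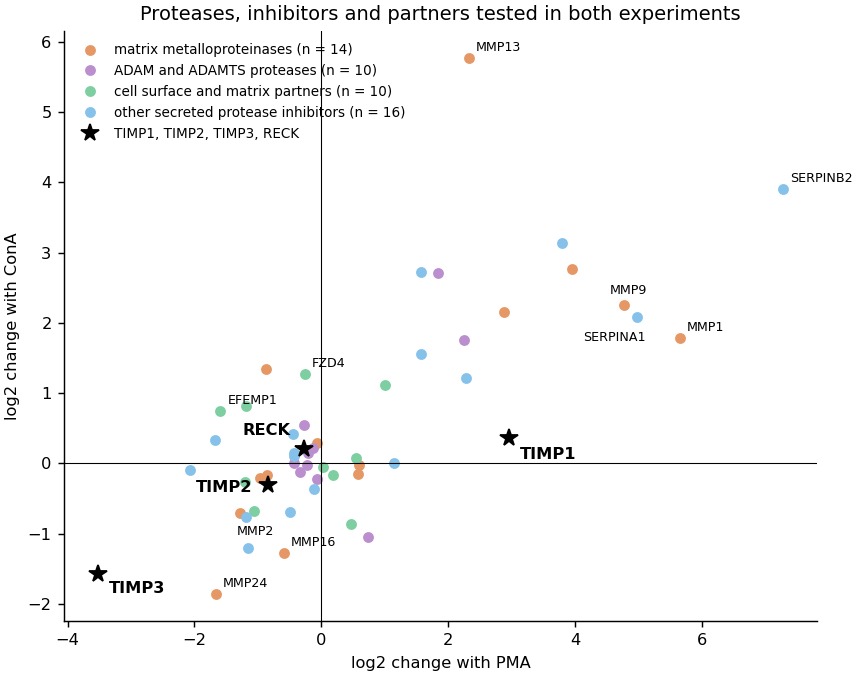
Log2 difference with PMA (x axis) and with ConA (y axis) for 14 MMPs, 10 ADAM and ADAMTS proteases, 10 partners and 16 other secreted inhibitors tested in both experiments, with the 4 inhibitors as stars. TIMP1 lies at 2.95 and 0.36, and TIMP3, at -3.51 and -1.58, lies lower with PMA than every listed gene.

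Genes whose profile was most like each inhibitor were found by the root mean square difference, over the 12 libraries, of log2 values from the mean of their own controls, among 11724 genes that averaged 100 or more normalized counts in both tables. Nearest to TIMP1 were SIGLEC15 (difference 0.084, with log2 differences of 2.83 with PMA and 0.33 with ConA), INSYN2B (0.125), GK (0.214), ST3GAL1 (0.248) and AJAP1 (0.254). Nearest to TIMP3 were JUP, the junction protein plakoglobin (0.124, with -3.61 and -1.72), VCAN, the matrix proteoglycan versican (0.246, with -3.07 and -1.61), ST6GAL2 (0.259), PDE7B (0.317) and BDKRB2 (0.372). For TIMP2 they were POLH (0.037), SREBF2 (0.048), SORBS2 (0.053), ITGA4 (0.054) and ENC1 (0.06), and for RECK ZNF112 (0.062), ZNF616 (0.063), KBTBD6 (0.068), ZNF3 (0.069) and MC1R (0.07). The smaller values for TIMP2 and RECK go with changes of small size, which many genes had.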

How the data were processed

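RNA from 12 HT1080 libraries, 3 in each of 4 groups, was analysed from 2 tables. The authors deposited signal values, namely read counts by gene symbol after scaling of each library (normalized counts). The submitters' processing notes name Partek, Bowtie2, STAR and DESeq2 and the builds hg19 and mm10, with no roles or order. From 80.2% to 82.6% of values between 5 and 60 were whole multiples of 1 read (within 0.02), so whole reads were not recovered and no test for counts was run. All columns were mapped to samples by their labels.

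Treated and control libraries were compared within each table with limma 3.58.1 (R 4.3.3), with a variance trend, on log2(value + 1), for genes with a mean of at least 10. Folds are on that scale, which understates the change of low genes. The difference between treatments was fitted over all 12 libraries with 4 group means. Shares, totals and ratios were compared with exact two-sided permutation tests. The limma step was tested on simulated data. Lists and markers were written from general knowledge. At most 4 called genes per list and treatment were named by size, and 5 nearest genes per inhibitor. Apart from the proteases of the ratios, other list genes named fall outside this rule. The members and lists were chosen with earlier results of these data known. Transcript lengths are those of the principal transcripts of GENCODE on GRCh38. Alternatives were pseudocounts of 0.1 and 10, no filter or a minimum mean of 50, quantile normalization, median centring, no variance trend, 1 fit of all libraries, the looser threshold, a replicate block and leaving out each library. Python 3.11.15 was used for tables and figures.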

Additional observations from a re-analysis of the deposited data

Results flagged for a closer look

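The change with PMA and the change with ConA, each against its own controls, differed for all 4 inhibitors in a direct test of the difference (limma over 12 libraries). PMA minus ConA on the log2 scale was 2.589 for TIMP1 (adjusted p = 1e-15), -1.93 for TIMP3 (adjusted p = 5.56e-11), -0.538 for TIMP2 (adjusted p = 5.99e-06) and -0.475 for RECK (adjusted p = 0.00109), where 61.1% of all genes had an adjusted p of at most 0.05. Those of TIMP1 and TIMP3 were also past the threshold of 1. For RECK the signs differ, with all 3 PMA libraries below and all 3 ConA libraries above their controls. Such a lack of overlap was seen for 67.9% of all genes with PMA and 69.3% with ConA. Neither RECK change was called, and after quantile normalization its adjusted p (limma) was 0.0711 with PMA and 0.203 with ConA. Treatment and experiment cannot be told apart.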

How the results depend on the processing

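Of 395 results under alternative settings, 367 were taken as unchanged. For tested genes this asked for the same direction and side of the threshold, and for shares and ratios a value within the replicate spread. Counts of called genes had only to stay within 1.5 times the main count. Of the 367, 7 were over 1.5 times larger or smaller. They are, after quantile normalization, TIMP2 (-0.16) and RECK (0.1) with ConA and both differences between treatments (-0.86 and -0.3), and the TIMP2 share with ConA without 1 of 3 libraries (0.623 to 1.84). The TIMP2 difference with PMA passed the thresholds after quantile normalization (-1.01). At an adjusted p of at most 0.05 with no minimum fold, TIMP2 (-0.84) and RECK (-0.27) passed with PMA, TIMP1 (0.36), TIMP2 (-0.3) and RECK (0.2) with ConA, and TIMP2 (-0.54) and RECK (-0.48) for the difference between treatments. That rule called 9586 genes with PMA and 9891 with ConA, and omitting the variance trend 867 and 662, against 1310 and 1318. Omitting the trend was tried for the lists after seeing the data. By limma 2 MMPs, 0 ADAM and ADAMTS proteases (1 after quantile normalization) and 0 partners were then called with ConA, and 3 other inhibitors with PMA. With ConA 7 of the proteases and 7 of the partners had an unadjusted p under 0.05. That is a weak criterion, as 65.3% of all genes had an adjusted p of at most 0.05 with the trend. Quantile normalization, added for the ratios after seeing the data, gave log2 changes of 0.32 for MMP14 to TIMP2 with ConA, 1.93 and 1.82 for MMP9 to TIMP1 with PMA and ConA, and 0.59 and 0.06 for MMP14 to RECK, the last opposite in sign to -0.36. The causes were not tested. Per length, shares of the TIMP pool differed by 41.2, -35.0 and -6.16 percentage points for TIMP1, TIMP2 and TIMP3 with PMA and by 14.2, -7.56 and -6.65 with ConA, by construction of the measure.

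Leaving out 1 library at a time gave log2 differences of 2.91 to 2.99 for TIMP1, -0.89 to -0.79 for TIMP2, -3.58 to -3.43 for TIMP3 and -0.32 to -0.21 for RECK with PMA, and of 0.35 to 0.38, -0.33 to -0.28, -1.66 to -1.54 and 0.18 to 0.23 with ConA. Genes called were 1107 to 1252 with PMA and 1123 to 1415 with ConA. With the replicate number as a block, 1264 genes were called with PMA, TIMP1 (2.95) and TIMP3 (-3.51) were called, and TIMP2 (-0.84) and RECK (-0.27) were not, as without it. Deviations of same-numbered libraries correlated at -0.06, 0.10 and 0.10, so the numbers were not taken to pair them. For ConA no paired analysis was possible because treated and control libraries share no numbers. TIMP4 could not be added to the pool, as it is not listed. With 3 libraries a group, the exact tests cannot give a p under 0.1.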
